A study of Schizosaccharomyces pombe with 6 samples.

Results

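The amo1 deletion array (amo1D, n = 1) was set against the 3 wild-type arrays (WT) of the same series, so 4 of its 6 arrays were used. It was chosen by its label, which names amo1D as the genotype, and not by any measured value. All cells, wild type included, were Schizosaccharomyces pombe (fission yeast) with the plasmid pINV1-H3.2-FLAG, which encodes histone H3 with a FLAG tag. Per the labels, hydroxyurea (15 mM) blocked the cells for 4 h in 8% glucose, and a shift to 4% sucrose, still with hydroxyurea, lasted 2 h. DNA bound to tagged H3 (Cy5) and whole-cell extract DNA (Cy3) were hybridised together on a tiling array of 60-base probes at 50-base steps. The cells were in a drug block, the tagged histone came from a plasmid in addition to the cell's own H3, and DNA was amplified by random-primed PCR, all of which limit the model. The values are averages over a culture, so more tagged H3 per cell and more cells with tagged H3 cannot be told apart.

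Amo1 is a protein of the nuclear rim related to the human nucleoporin-like protein NUPL2, and the series title names it in the peripheral positioning of heterochromatin. In fission yeast, heterochromatin marked by histone H3 lysine 9 methylation covers the pericentromeric repeats, the silent mating-type interval and the chromosome ends, and it is known for slow exchange of its histones. The central core of each centromere differs from the repeats around it, because its nucleosomes carry the H3 variant CENP-A. Clusters of tRNA genes stand at the borders between these domains and the arms. Per the series title, which links peripheral positioning to suppressed nucleosome turnover, the comparison asks whether newly made H3 enters such regions more in cells without Amo1.

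The measure throughout is log2 of processed Cy5 over processed Cy3, centred on the median of each array. It compares tagged H3 with input DNA and with the median probe, so a shift over all probes would not be seen, and total H3 was not measured. Values were averaged in 200 bp windows with at least 2 probes, which left 10991 windows after the deleted stretch was masked. A difference is amo1D minus the mean of the 3 WT arrays, on the log2 scale. WT replicate 1 was on the slide of amo1D, and the difference from that array alone is given as the value within the slide. The 4 arrays had processed intensities with medians of 1057 to 1150 in Cy5, and of 1064 to 1145 in Cy3; the number of arrays limits the precision. Over all windows, amo1D correlated at r = 0.90 with its slide mate, 0.85 with WT replicate 2 and 0.81 with WT replicate 3. The WT pairs gave 0.82 to 0.87, and these correlations share probes, base composition and input DNA.

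The gene amo1 was checked first, in every array. Over its 31 probes, WT replicates 1 to 3 had log2 Cy3 values of -0.92, -0.86 and -0.88 against the array median. The amo1D array was at -9.41, with 4 of 31 probes well above background, and in rix1E414K and pob3D, the other mutants of the series, at -0.81 and -0.72. The amo1D array alone lacked the gene in its input DNA. The missing stretch ran over 1660 bp, from 3030361 to 3032020 in the numbering of the array, which is 3028561 to 3030220 on chromosome II of the RefSeq build ASM294v3.

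The sequences that follow carry the differences described here, taken from RefSeq ASM294v3 on the forward strand unless stated. The first 5 are windows from runs among the largest in difference, each with its 60-base probe of largest difference in capitals, and for the runs over genes the windows were chosen to hold no untranslated exon. The last is the stretch before the start of hsp16, on the reverse strand, with the motif GAANNTTC in capitals.
Central core of centromere 2 (chrII:1623911-1624120): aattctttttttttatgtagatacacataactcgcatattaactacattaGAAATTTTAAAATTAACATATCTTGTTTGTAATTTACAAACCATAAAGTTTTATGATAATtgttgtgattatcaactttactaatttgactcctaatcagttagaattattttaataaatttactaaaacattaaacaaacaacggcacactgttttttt
Left outer tRNA cluster of centromere 2 (chrII:1599111-1599320): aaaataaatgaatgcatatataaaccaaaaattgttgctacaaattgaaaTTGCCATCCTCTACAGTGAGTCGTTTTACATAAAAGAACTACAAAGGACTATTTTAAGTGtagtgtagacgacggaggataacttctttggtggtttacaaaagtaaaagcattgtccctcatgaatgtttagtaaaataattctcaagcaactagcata
Upstream of tdh1 (chrII:2807311-2807520): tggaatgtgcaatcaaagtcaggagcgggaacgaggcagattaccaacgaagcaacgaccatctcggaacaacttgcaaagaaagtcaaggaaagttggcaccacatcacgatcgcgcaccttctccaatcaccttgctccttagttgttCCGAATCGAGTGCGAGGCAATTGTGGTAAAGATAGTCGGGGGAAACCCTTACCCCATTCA
Run with no measured gene, over SPNCRNA.1571 and SPNCRNA.1572 (chrII:3009911-3010120): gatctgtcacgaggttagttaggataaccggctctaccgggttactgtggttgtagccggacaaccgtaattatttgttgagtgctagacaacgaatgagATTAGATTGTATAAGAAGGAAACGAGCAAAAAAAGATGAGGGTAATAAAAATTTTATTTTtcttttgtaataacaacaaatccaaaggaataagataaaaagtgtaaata
Coding part of SPBC19C7.04C, the largest lower run (chrII:2825711-2825920): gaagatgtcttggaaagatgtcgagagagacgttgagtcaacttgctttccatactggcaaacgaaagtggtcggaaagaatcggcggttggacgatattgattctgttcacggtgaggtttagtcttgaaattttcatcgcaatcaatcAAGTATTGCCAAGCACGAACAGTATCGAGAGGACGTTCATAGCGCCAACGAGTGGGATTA
Upstream of hsp16 (chrII:2660993-2661242): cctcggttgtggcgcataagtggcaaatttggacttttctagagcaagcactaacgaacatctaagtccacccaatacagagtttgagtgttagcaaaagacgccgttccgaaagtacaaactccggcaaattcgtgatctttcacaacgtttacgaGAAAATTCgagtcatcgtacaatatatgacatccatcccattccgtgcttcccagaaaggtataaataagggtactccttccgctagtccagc
In the core window the WT replicates were at -4.02, -3.91 and -3.93 and amo1D was at -2.94. In the tRNA cluster window they were at -1.07, -1.14 and -1.21 against -0.38. Upstream of tdh1 the WT replicates were at -0.89, -0.18 and -1.32 and amo1D at 0.28. These 3 windows had amo1D above all WT arrays. The window over SPNCRNA.1571 and SPNCRNA.1572 was at 0.98, 0.89 and 0.19 in WT and at 1.43 in amo1D, also above all WT arrays. The SPBC19C7.04C window, at 1.30, 0.72 and 0.87 in WT, was at 0.24 in amo1D and thus below all WT arrays. Among the 4 windows that were higher, G and C content ran from 21.4% in the core window to 49.5% upstream of tdh1.

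Across all tiled sequence, amo1D was above all 3 WT arrays in 2874 windows, which is 26.1% of 10991, and below all 3 in 2668, which is 24.3%. Over single probes the shares were 25% above and 23.4% below. Those near-equal shares are the background against which each region is read. The size of the differences was lopsided. A difference over 0.5 was found in 294 windows, of which 153 lay in centromere 2, whereas 14 windows were under -0.5. In centromere 2 the outer repeats depend on WT replicate 2, and the core on background handling and normalization, as given below. The count was not repeated under those settings. No window passed limma with Benjamini-Hochberg adjustment at 0.05 (smallest adjusted p = 0.986), and at an unadjusted p of 0.05, 295 windows (2.68%) were higher and 89 (0.81%) lower. With 1 amo1D array, all residual spread in that fit came from the 3 WT arrays, and the lone array was assumed to vary like them. Separate cultures are not stated in the labels, so the WT spread may be technical.

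**Figure D1:**
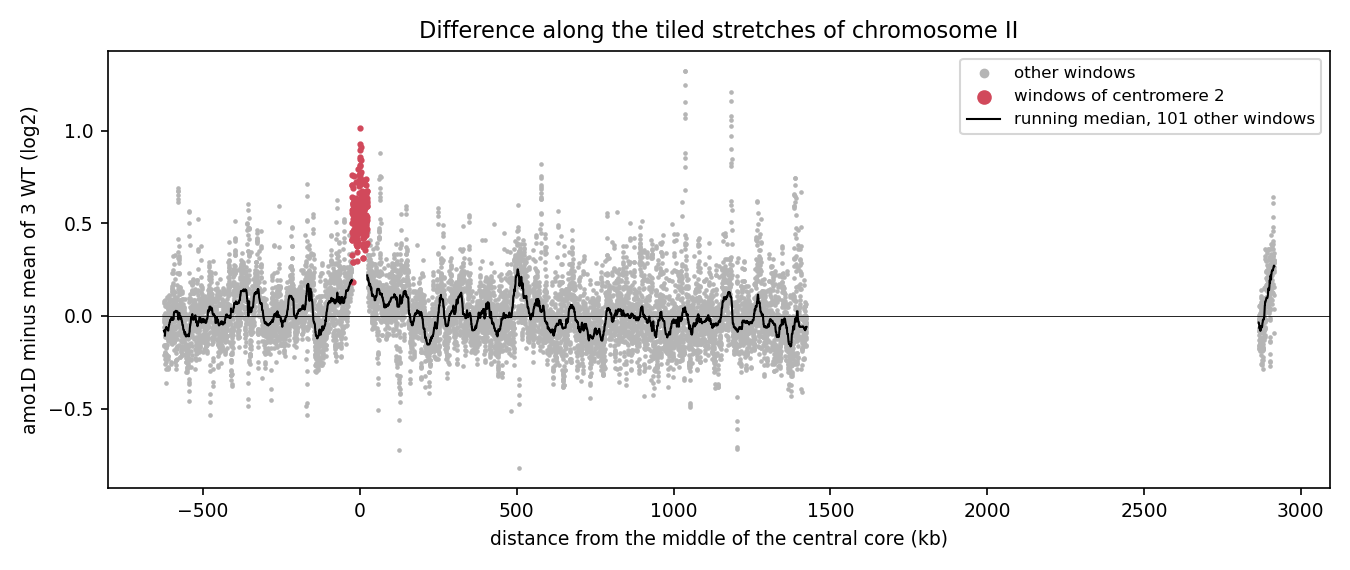
Difference of amo1D from the mean of the 3 WT arrays (log2, vertical axis) in each 200 bp window of chromosome II against distance from the middle of the central core of centromere 2 (kb, horizontal axis), with windows of centromere 2 in red, other windows in grey and a running median of the other windows as a line. The 245 windows of centromere 2 stand as a column above 0 (153 of them over 0.5), with narrower spikes on the arms and a rise towards the right end. The empty stretch was not tiled.

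Centromere 2 was higher in amo1D over its whole width, from one outer tRNA cluster to the other. In the central core (II, 1619257 to 1629158 on ASM294v3, 49 windows) the WT replicates were at -3.60, -3.35 and -3.66 and amo1D was at -2.86. amo1D exceeded every WT array in all 49 core windows, and the mean difference was 0.67 (1.59-fold, WT SD 0.16, n = 3) and 0.73 within the slide. The core stayed the lowest region measured in amo1D as in WT, and the groups did not overlap there.

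The core signal in the ChIP channel was low on every array, and the result depended on how background was handled. The scanned Cy5 of core probes had a median of 865, 515 and 847 in the WT replicates and of 1858 in amo1D, over local backgrounds of 89, 111, 70 and 105. Probes outside the named regions scanned at 8708, 7703, 8847 and 10138. Under normexp background correction, the core difference turned to -0.63, and after quantile normalization, which gives the lowest ranks of all arrays the same values, it was -0.003. Without any background subtraction it was 0.38.

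The repeats on both sides of the core form an inverted pair, and most of their probes match more than 1 place, so left and right cannot be told apart. The outer copies (11723 bases, 99.9% identical) and the inner copies (4136 bases, 99.8% identical) share their sequence nearly base for base. In the innermost repeats (26 windows) the WT replicates were at -1.36, -1.55 and -1.15 and amo1D was at -0.79. All 26 windows were above all WT arrays (mean difference 0.56, WT SD 0.20), with 0.57 within the slide. In the outer repeats (131 windows), which hold the elements that carry H3K9 methylation, WT replicates 1 and 3 were at -0.43 and -0.48, WT replicate 2 was at -1.18 and amo1D at -0.20. There 117 of 131 windows were above all WT arrays, and the mean difference of 0.49 had a WT SD of 0.42. WT replicate 2 set much of that value: without it the outer repeats differed by 0.25, and within the slide by 0.23. The innermost repeats were 0.46 higher without it.

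The outer tRNA clusters gave the difference that was largest against its WT spread among the centromere classes. In their 39 windows the WT replicates were at -1.29, -1.18 and -1.41 and amo1D was at -0.72. amo1D exceeded every WT array in all 39 windows by 0.57 on average (1.49-fold, WT SD 0.12), and within the slide the difference was also 0.57. The left cluster was 0.57 higher and the right cluster 0.58, but 75% and 87.1% of their probes match more than 1 place, so the sides are not independent measurements. Cy5 carried it: Cy5 against the array median was at -1.03, -1.02 and -1.17 in WT and at -0.51 in amo1D, while Cy3 was at 0.27, 0.14 and 0.23 in WT and at 0.21 in amo1D. The input channel of amo1D thus lay inside the WT range over the clusters. In the outer repeats Cy5 was at 1.62, 0.58 and 1.98 in WT and at 1.94 in amo1D, which is inside the WT range of that channel. Quantile normalization lowered the difference of the clusters to 0.37, and scaling every array to one median absolute deviation raised it to 0.73.

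**Figure D2:**
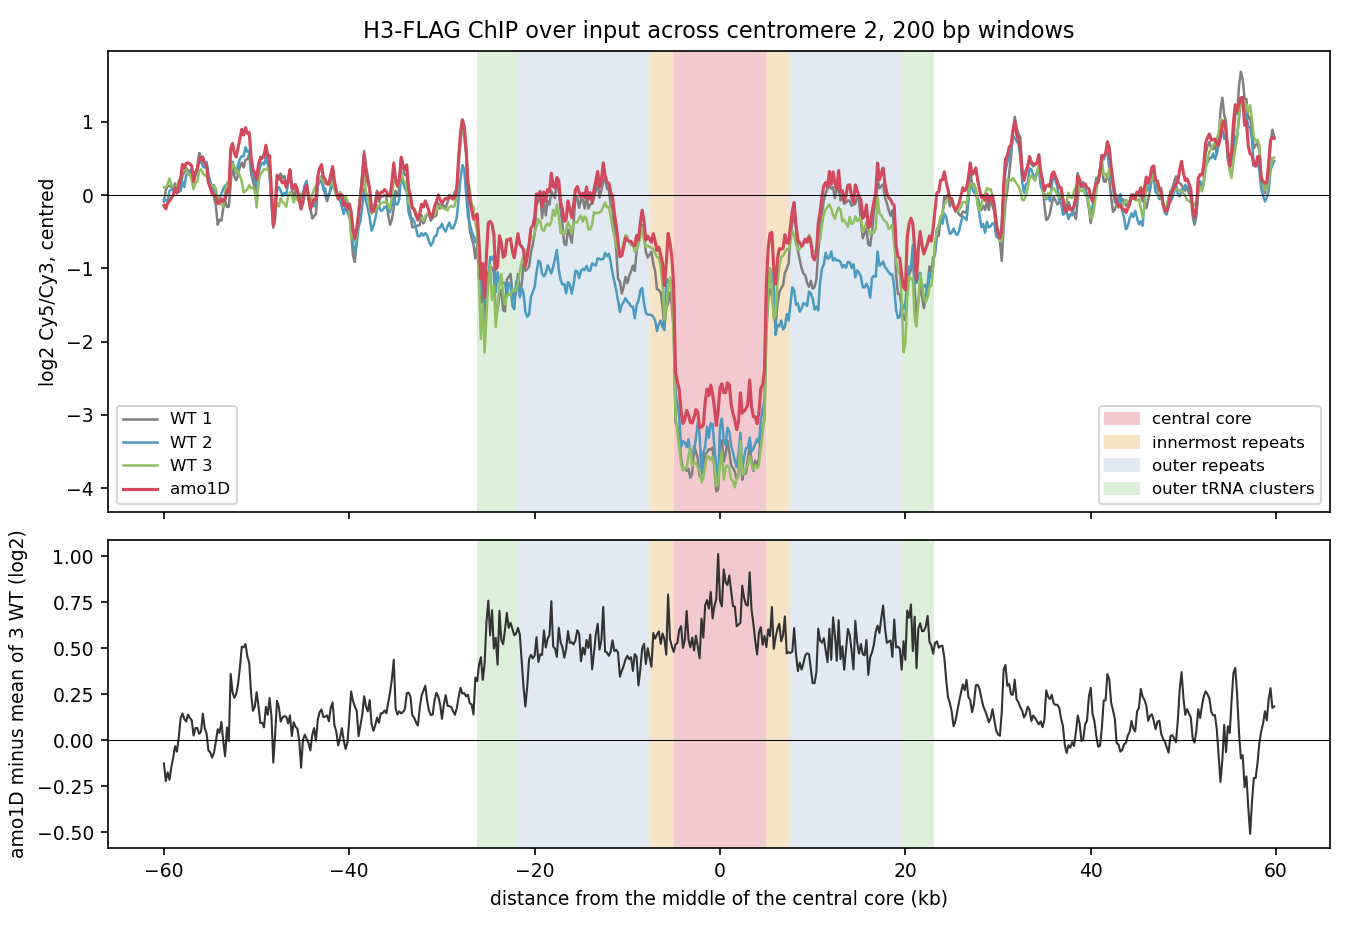
Centred log2 Cy5/Cy3 of the 4 arrays (upper panel) and amo1D minus the mean of the 3 WT arrays (lower panel, log2) in 200 bp windows across centromere 2 and its flanks, against distance from the middle of the central core in kb, with shading for the core, the repeats and the tRNA clusters. The amo1D line lies above the WT lines in all 49 core windows and all 39 windows of the tRNA clusters, and in the outer repeats WT 2 lies apart from WT 1 and WT 3.

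Genes for tRNAs followed the same map. Each tRNA gene rests on 2 probes, which also read their neighbours through fragments of 400 to 600 bp. Of the 24 measured, 17 lie in centromere 2, and 14 of these 17 were above all WT arrays, against 24.3% of all 946 genes. In 14 of the 17, every probe matches more than 1 place, so copies of a gene largely repeat one measurement. Their mean was at -1.31, -0.92 and -1.35 in WT and at -0.79 in amo1D, a difference of 0.40 with a range of 0.13 to 0.54. The 7 tRNA genes elsewhere on chromosome II averaged -0.67, -0.35 and -0.60 in WT and -0.44 in amo1D. Of those 7, 1 was above all WT arrays and 1 was below, and their differences ran from -0.05 to 0.26. The 21 windows at dispersed tRNA genes on the arms were at -0.55, -0.31 and -0.44 in WT and at -0.27 in amo1D, with 12 of 21 (57.1%) above all WT arrays, a difference of 0.17 (WT SD 0.12) and 0.28 within the slide. The difference between the places was not tested. The probes of SPBTRNAARG.07, an arginine tRNA gene, match 1 place only by their inner 40 bases. Its 73 bases are the same as those of SPBTRNAARG.06 in the left cluster, so its probes may also read that copy. At SPBTRNAARG.07 WT was at -0.98, -0.84 and -0.97 and amo1D at -0.49. That is 0.44 higher (SE 0.093, limma adjusted p = 0.806), outside the WT range.

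Beyond the tRNA clusters, the difference fell over a few kb on both sides but did not reach the level of the arms within 50 kb. On the left it was 0.24 in the first 2 kb, 0.19 from 2 to 5 kb, 0.20 from 5 to 10 kb, 0.09 from 10 to 20 kb and 0.13 from 20 to 50 kb. To the right of the centromere the same zones gave 0.40, 0.23, 0.19, 0.12 and 0.14. In the 50 kb on the left as a whole the WT replicates were at 0.14, 0.04 and 0.11 and amo1D was at 0.23, and on the right they were at 0.17, 0.07 and 0.09 against 0.27. Windows above all WT arrays made up 50% on the left and 56.4% on the right. From 50 to 100 kb the differences were 0.02 on the left and 0.08 on the right, and from 100 to 200 kb 0.04 and -0.002. Farther along the arms, zones of 100 or 200 kb ranged up to 0.08 (300 to 400 kb on the left, 46.8% above all WT arrays), so a difference of that size is not particular to the flanks.

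Some genes near centromere 2 were higher too, and those that follow are examples. On the right, yox1, which encodes a repressor of S-phase genes bound by the MBF factor, was at -0.05, -0.33 and -0.11 in WT and at 0.22 in amo1D. Its difference of 0.38 (SE 0.13) did not pass (adjusted p = 0.806 in limma). Further genes on that side, dpm2 (0.30), kgd4 (0.25) and the ribosomal protein gene rps402 (0.22), had amo1D above all WT arrays as well. The gene rec6, touched by the same run of windows as yox1, is not given here. On the left, rpb1, for the largest subunit of RNA polymerase II, was at -0.08, -0.39 and -0.07 in WT and at 0.02 in amo1D. The HMG-box gene hmo1 was 0.19 higher. Of all 946 genes, 24.3% were above all WT arrays. For these 6 genes amo1D was above the WT range, and none passed the adjusted threshold. The other measured genes of the flanks are not given, so the 6 are not a share of them. Of the windows within 50 kb, 50% on the left and 56.4% on the right were above all WT arrays.

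On the chromosome II tiling, the mean difference was larger in the 10 kb left of the silent mating-type interval than in the interval, and smaller to its right. In the interval (39 windows) the WT replicates were at -0.54, -0.58 and -0.34 and amo1D was at -0.32, a difference of 0.17 (WT SD 0.13) with 20 of 39 windows above all WT arrays. Restricted to probes that match 1 place, the interval differed by -0.04. Of all its probes, 67.1% match more than 1 place, and the cause of the change in sign was not tested. In the 10 kb to the left, which is unique sequence, the WT replicates were at 0.11, 0.04 and 0.09 and amo1D was at 0.31. There 40 of 50 windows (80.0%) were above all WT arrays, and the difference of 0.23 was larger than the WT SD of 0.04. The Cy5 of this stretch was at 0.36, 0.30 and 0.33 in WT and 0.38 in amo1D, whereas Cy3 was at 0.26, 0.25 and 0.23 in WT and at 0.07 in amo1D. The input channel therefore fell by 0.18 while the ChIP channel was 0.05 higher. In the 10 kb to the right the difference was 0.09, with 20 of 50 windows above.

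All 7 measured genes left of the interval had amo1D above the WT range, against 24.3% of all 946 genes, with differences from 0.06 to 0.32. The gene rpp202, for an acidic protein of the large ribosomal subunit, was at -0.13, -0.19 and -0.15 in WT and at 0.13 in amo1D (difference 0.29, SE 0.079, limma adjusted p = 0.806). The DNA glycosylase gene mag2 was at 0.57, 0.52 and 0.39 in WT and at 0.80 in amo1D. SPBC23G7.10C was 0.27 higher and rpt6, for an ATPase of the proteasome, 0.24 higher. Inside the interval, mat3-Mc, a mating-type gene of the silent M cassette, was at 0.04, -0.05 and 0.12 in WT and at 0.26 in amo1D. Since 67.1% of the interval's probes match more than 1 place, this value may also read other copies, which was not tested.

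The array also tiles an extra sequence of 41210 bases that is not annotated here, and it was higher in amo1D over most of its length. From 10 to 20 kb along it the WT replicates were at 0.06, -0.02 and 0.04 and amo1D was at 0.26, with 40 of 50 windows above all WT arrays. There Cy3 differed by -0.16 and Cy5 by 0.08. From 20 to 30 kb they were at -0.51, -0.77 and -0.38 against -0.18, and 41 of 50 windows were above. In that zone Cy5 differed by 0.37 and Cy3 by 0.003, and whether it covers the silent interval was not tested. The last 11 kb differed by 0.31 (32 of 56 windows) and the first 10 kb by 0.07. The mean of amo1D lay outside the WT range in each of these zones but the first. Matching by base composition placed bases 10001 to 15010 of this sequence best on chromosome II, at a shift of -2109750 (r = 0.76, next best 0.56). That place lies in the 10 kb left of the mating-type interval, and no other stretch of the extra sequence had a match as clear. Bases 1 to 5010 were best at nearly the same shift, -2109740, though hardly above their next best (r = 0.65 against 0.63). The zone from 10 to 20 kb may therefore repeat part of that measurement and is not shown to be independent of it.

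The chromosome ends did not share the height of the centromere. In the last 10 kb of the right end of chromosome II the WT replicates were at -0.19, -0.58 and -0.04 and amo1D was at -0.004, so that 26 of 50 windows were above all WT arrays. The difference of 0.27 was within the WT SD of 0.28, and it was 0.11 without WT replicate 2. From 10 to 30 kb inward amo1D lay inside the WT range of means (-0.10 and 0.05). In the zones from 30 to 50 kb it differed by -0.08 and -0.06, with at most 1 of 50 windows above. The telomere-linked helicase gene tlh2 was at -0.01, -0.78 and -0.05 in WT and at -0.07 in amo1D. At the left end of chromosome III the first 10 kb was at -0.22, 0.03 and -0.45 in WT and at -0.46 in amo1D, a difference of -0.25 close to the WT SD of 0.24. Most probes from 10 to 50 kb of the right end match more than 1 place, and the III end was not annotated here.

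**Figure D3:**
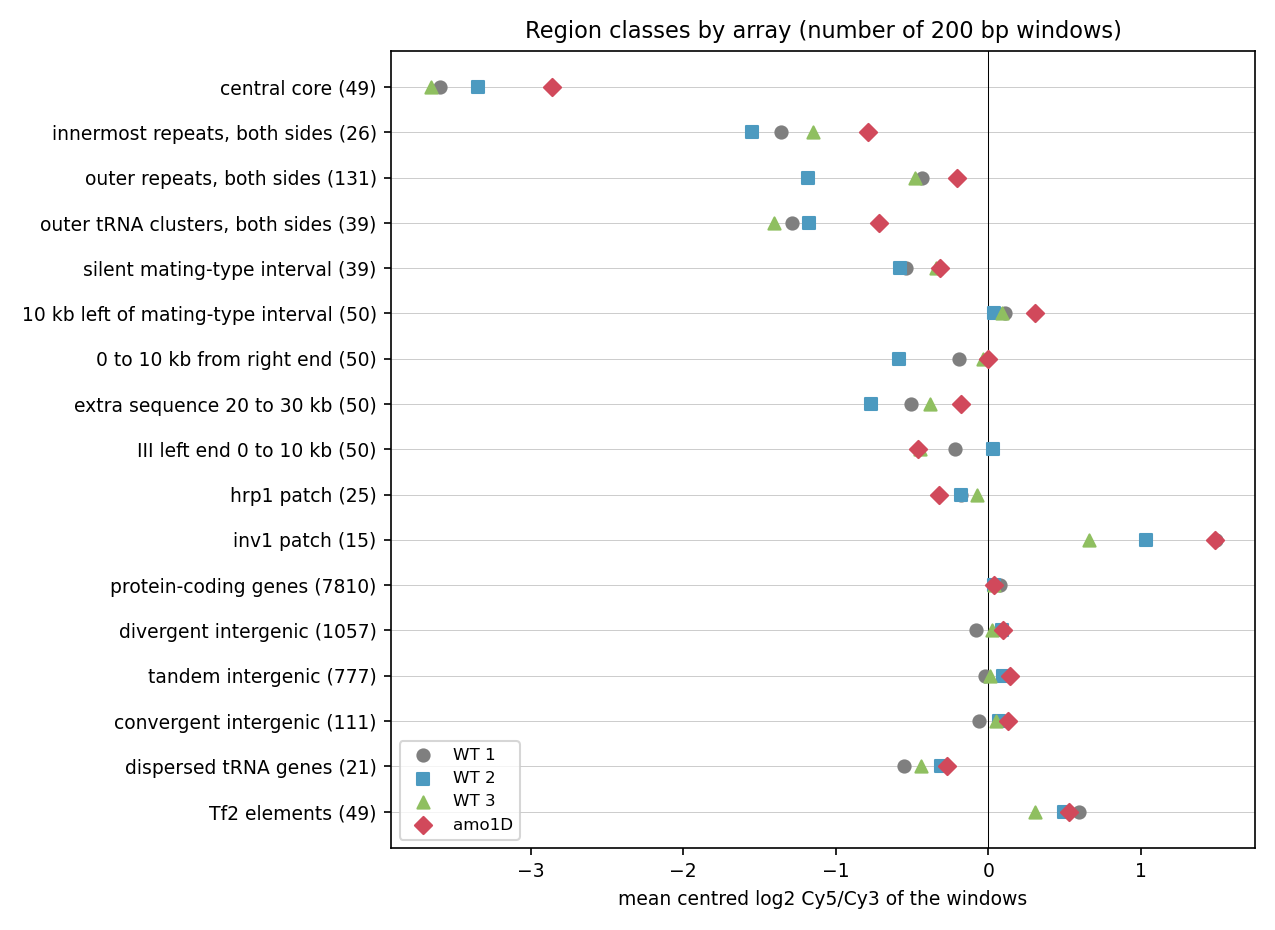
Mean centred log2 Cy5/Cy3 (horizontal axis) of the 200 bp windows of each region class, 1 point per array, with the number of windows in brackets. The amo1D points lie to the right of all WT points in the 4 centromere classes and in the 10 kb left of the mating-type interval (0.31 against 0.04 to 0.11), and to the left of them at the hrp1 patch (-0.33 against -0.18 to -0.08).

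On the arms, the spaces between genes had means slightly above all WT arrays, whereas the mean of gene bodies lay inside the WT range. Protein-coding gene bodies (7810 windows) were at 0.08, 0.04 and 0.04 in WT and at 0.04 in amo1D. Of these windows 20.9% were above and 30.9% below all WT arrays. Divergent intergenic windows (1057) were at -0.08, 0.09 and 0.02 in WT and at 0.09 in amo1D, with 34.3% above and 8.6% below. Tandem intergenic windows (777) were at -0.02, 0.10 and 0.01 against 0.14, and convergent ones (111) at -0.06, 0.07 and 0.05 against 0.13. In both of these classes 38.7% of windows were above all WT arrays. The differences were 0.08, 0.11 and 0.11, against WT SDs of 0.09, 0.06 and 0.07. Without WT replicate 1 the divergent class differed by 0.04 and the convergent class by 0.07, and within the slide by 0.18 and 0.19.

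The input channel and base composition moved with the intergenic difference. In divergent intergenic windows Cy3 was at -0.95, -0.81 and -0.91 in WT and at -1.02 in amo1D, below all WT arrays, and Cy5 was at -0.94 in amo1D against -1.04, -0.71 and -0.88. Euchromatic windows were split into 10 equal bins by G and C content. The lowest bin (13.3% to 28.6%) was at -0.16, 0.01 and 0.02 in WT and at 0.02 in amo1D, where the slide mate WT replicate 1 stood apart. The highest bin differed by 0.08, and the bins from the third to the ninth by -0.02 to 0.01. At 40% G and C or more, tandem intergenic windows (56) differed by 0.30 (WT SD 0.16) with 66.1% above all WT arrays, with differences of -0.19 in Cy3 and 0.10 in Cy5. Divergent windows (106) of that content differed by 0.17 (WT SD 0.13), with differences of -0.10 in Cy3 and 0.06 in Cy5, and windows of coding genes (2607) by 0.02. The part of composition in the intergenic result was not tested beyond these strata.

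Along genes, the WT arrays themselves differed in how deep the dip before gene starts was. Between 300 and 200 bp before the start, WT was at -0.15, 0.02 and -0.04 and amo1D at -0.005, inside the WT range. From 900 to 1000 bp into genes amo1D was at 0.06, just under WT values of 0.10, 0.06 and 0.06. After gene ends, from 100 to 200 bp, amo1D was at 0.06 and WT at -0.01, 0.04 and 0.02, so amo1D lay above all WT arrays there.

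**Figure D4:**
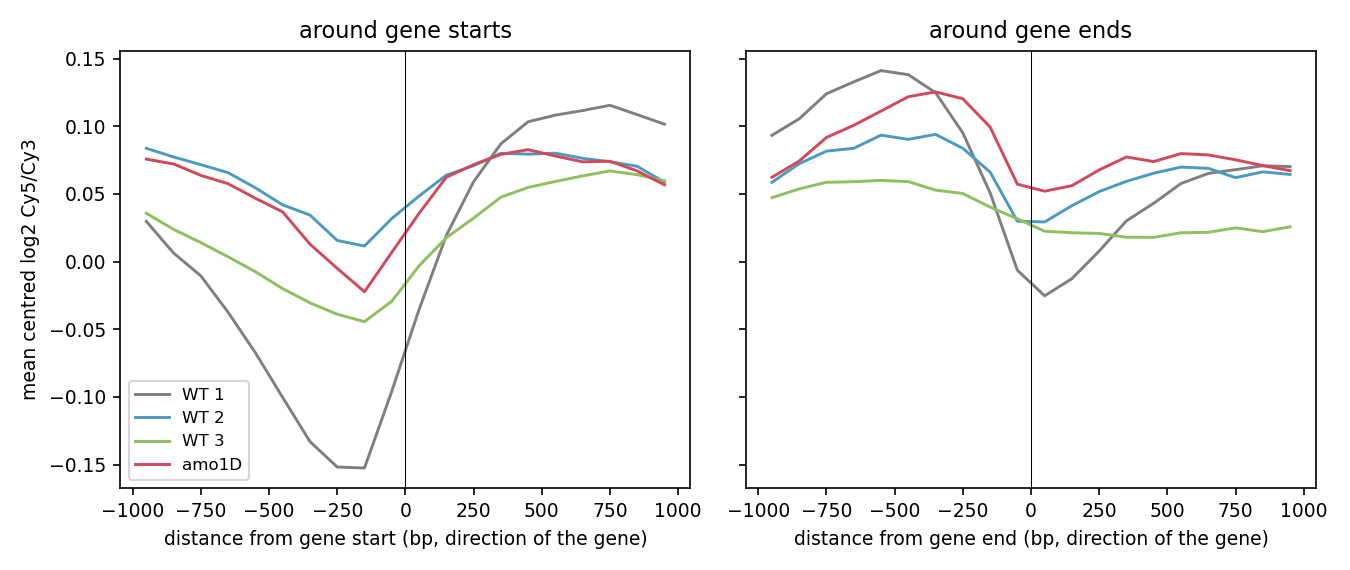
Mean centred log2 Cy5/Cy3 of each array in 100 bp steps around the starts (left) and ends (right) of 872 protein-coding genes, against distance in bp in the direction of the gene. The amo1D curve runs inside the WT range from 1000 bp before to 200 bp after starts and above all WT curves just after ends (0.06 against -0.01 to 0.04).

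Gene length went with the direction of the difference, a split made after the values were seen. The 34 genes of up to 500 bp averaged 0.10 higher, with 14 above and 5 below all WT arrays (41.2% and 14.7%). Among all 946 genes the shares were 24.3% above and 27.7% below. The 118 genes of 500 to 1000 bp averaged 0.07 higher. Genes of 1000 to 2000 bp differed by 0.02 up to 1500 bp and by 0.001 above it. The 48 genes over 4000 bp averaged -0.05, with 5 above and 24 below all WT arrays. In these long genes the WT replicates were at -0.02, -0.10 and -0.06 and amo1D was at -0.11. The genes of up to 500 bp had WT at 0.01, 0.03 and -0.01 and amo1D at 0.11. The mean of amo1D was outside the WT range in both length classes.

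No gene passed the adjusted threshold. Of 946 genes tested, 230 (24.3%) were above all WT arrays and 262 (27.7%) below, and limma called 0 at an adjusted p of 0.05 (smallest 0.806). At an unadjusted p of 0.05, 36 (3.81%) were higher and 13 (1.37%) lower. The values that follow therefore describe this array beside the WT spread.

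Glycolytic genes had the highest median difference of the gene lists. All 4 measured of 16 lay above all WT arrays, with a median difference of 0.67 against -0.002 for all genes, and 0 passed the adjusted test. For comparison, 24.3% of all 946 genes lay above all WT arrays. The gene tdh1, for glyceraldehyde-3-phosphate dehydrogenase, was at 0.29, 0.44 and 0.06 in WT and at 1.10 in amo1D. It had the smallest p of all genes (difference 0.83, 1.78-fold, SE 0.16, limma adjusted p = 0.806), and 0.81 within the slide, and 24.1% of its probes match more than 1 place. The enolase gene eno101 was at 0.60, 0.38 and -0.34 in WT and at 0.88 in amo1D. The aldolase gene fba1 was at 0.56, 0.36 and -0.12 in WT and at 0.93 in amo1D. At both, WT replicate 3 was far below the other WT arrays, and within the slide the differences were 0.28 and 0.37. Without WT replicate 3, eno101 differed by 0.39 and fba1 by 0.47. The phosphofructokinase gene pfk1 was 0.14 higher, with amo1D just above the WT range. Of the windows joined to runs, the tdh1 run was the highest, over 19 windows (3810 bp) that begin upstream of the gene. There WT was at 0.29, 0.50 and -0.10 and amo1D at 0.96. The Cy5 of this run was at -0.401, 0.315 and -1.253 in WT and at 0.23 in amo1D, inside the WT range of that channel. Cy5 also lay inside the WT range over the runs of eno101 and hsp16, and above it over the fba1 run.

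Core stress genes were led by hsp16, which encodes a small heat-shock protein. Its WT values were 0.49, 1.03 and -1.18 and amo1D was at 1.33, so amo1D was the highest, but the WT SD of 1.15 nearly equalled the difference of 1.22 (SE 0.83, limma adjusted p = 0.885). The glutathione peroxidase gene gpx1 was at 0.82, 0.67 and 0.28 in WT and at 0.92 in amo1D. The gene ish1, for a stress-induced protein of the nuclear envelope, was at 1.27, 0.85 and 0.50 in WT and at 1.23 in amo1D. WT replicate 3 was the lowest array for all 3 genes, and ish1 overlapped the WT range. Without that replicate the differences were 0.57 for hsp16, 0.18 for gpx1 and 0.17 for ish1. The stretch of 250 bases before hsp16 holds the motif GAANNTTC, the same on both strands, once. That palindrome was found in 85 of 886 such stretches before coding genes (9.6%), and the stretches before tdh1, eno101, fba1 and pfk1 do not hold these letters.

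Of 25 ribosomal protein genes measured, 16 were above and 2 below all WT arrays, with a median difference of 0.08, and 0 passed the adjusted test. Over all 946 genes, 24.3% were above and 27.7% below all WT arrays. Most of the 25 genes were shorter than 1000 bp. Among all genes of up to 500 bp and of 500 to 1000 bp, 41.2% and 38.1% were above. The mean differences of those length classes were 0.10 and 0.07, against 0.09 for the list. Of its members, rps402 and rpp202 were also given with the centromere and mating-type flanks. The gene rpl26 was at 0.19, 0.07 and 0.09 in WT and at 0.41 in amo1D, and rpl1701 at -0.22, -0.19 and -0.15 in WT and at 0.09. For both, as for rpp202, amo1D lay outside a narrow WT range, but these genes were named by p from those above all WT arrays. The lowest member, rps2501, was at -0.39, -0.57 and -0.12 in WT and at -0.54 in amo1D.

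Other genes of smallest p among those above all WT arrays were sua1, mug93 and SPBC15D4.11C. The sulfate adenylyltransferase gene sua1 was at 0.33, 0.44 and 0.28 in WT and at 0.72 in amo1D. The meiotically upregulated gene mug93 was at 0.10, -0.04 and 0.00 in WT and at 0.33 in amo1D. SPBC15D4.11C is the first measured gene to the right of the deletion. It was at 0.25, 0.21 and 0.10 in WT and at 0.56 in amo1D (difference 0.37, SE 0.094). The window nearest the edge differed most: the one that starts at 3032111 was at 0.10, 0.17 and 0.02 in WT and at 0.77 in amo1D, and the 5 windows of the first kb were all above all WT arrays (mean difference 0.41). Farther out, the window that starts at 3034111 was at -0.14, -0.08 and 0.05 in WT and at -0.47 in amo1D. On the left edge the first kb differed by 0.10.

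Among genes that were lower in amo1D, SPBC19C7.04C was at 0.99, 0.56 and 0.67 in WT and at 0.27 in amo1D, which is -0.47 (SE 0.18) and the most negative difference among the named genes (limma adjusted p = 0.806). The pseudogene SPBC31A8.02 was at 0.07, 0.12 and 0.18 in WT and at -0.25. The gene gcn2, for a kinase of the translation factor eIF2, was at 0.06, 0.06 and 0.05 in WT and at -0.15 in amo1D. Its run of 27 windows was the longest in the lower direction. The origin recognition gene orc1 was at 0.06, 0.14 and 0.03 in WT and at -0.15, and the MADS-box factor gene mbx1 at 0.32, 0.28 and 0.33 in WT and at 0.10. The ubiquinone synthesis gene coq8 was at -0.03, -0.01 and 0.01 in WT and at -0.25 in amo1D. These 6 genes were named from those below every WT array, so that position is no separate result. Ranking by p also favours a narrow WT range, which was narrowest at gcn2 (WT SD 0.006).

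**Figure D5:**
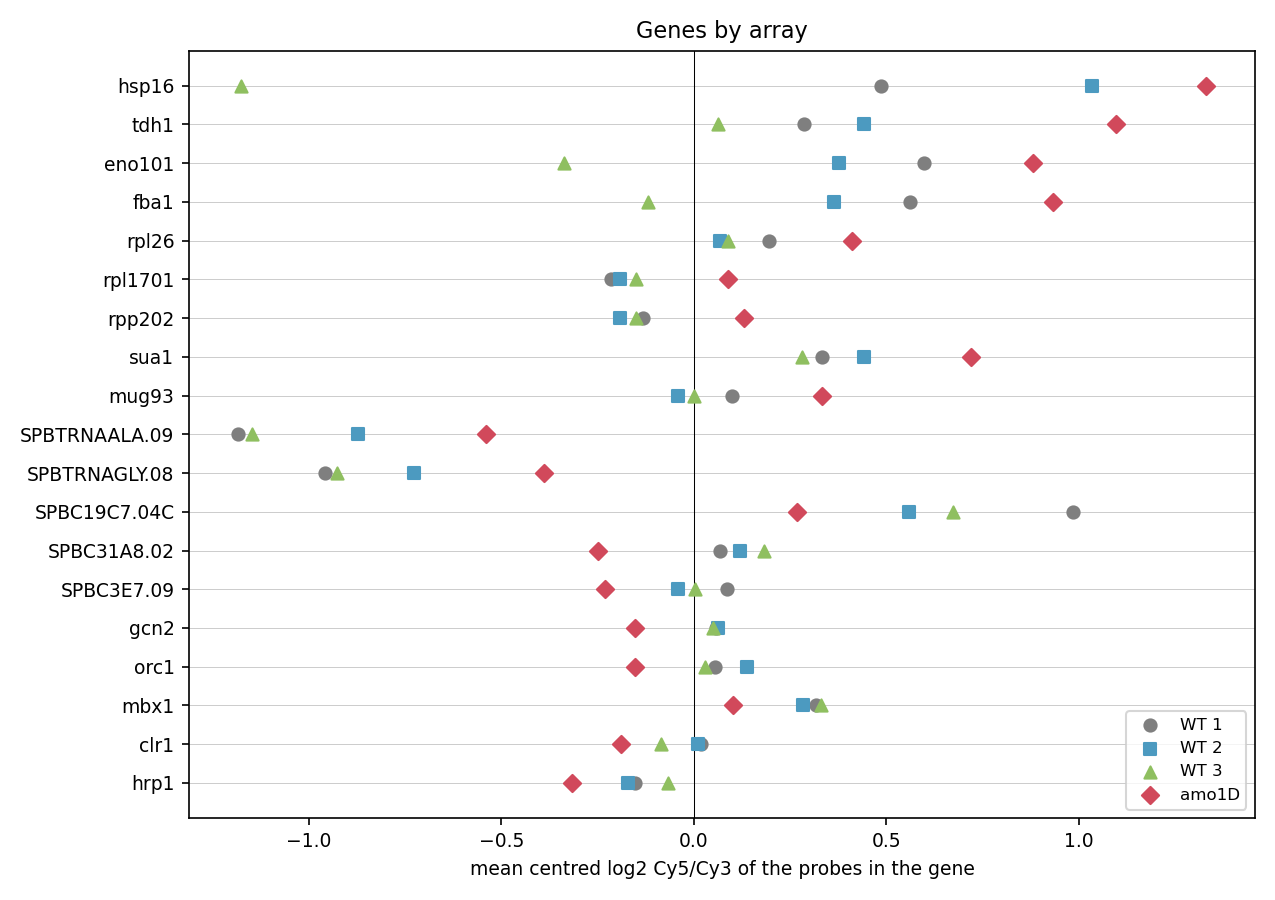
Mean centred log2 Cy5/Cy3 (horizontal axis) over the probes of 19 named genes, 1 point per array. The amo1D point is to the right of all WT points from hsp16 down to SPBTRNAGLY.08 and to the left of them from SPBC19C7.04C down to hrp1, and the WT points of hsp16 span -1.18 to 1.03. Many of these genes were named from those outside the WT range.

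Few genes of chromatin and nuclear periphery factors were measured, and 0 passed the adjusted test. Of 4 measured genes for histone chaperones and remodellers, 2 were below all WT arrays and 0 above (median -0.07). Among them hrp1, for a CHD1-type remodeller, was at -0.15, -0.17 and -0.07 in WT and at -0.32 in amo1D. The 2 heterochromatin factor genes, clr1 of the SHREC deacetylase complex (-0.17) and tas3 of the RITS complex (-0.06), were both below all WT arrays. The 7 nuclear pore and envelope genes had a median of -0.01 with 0 above and 2 below. Of all 946 genes, 27.7% were below all WT arrays, so counts this small do not set these lists apart. The histone H3 gene hht2 was at 1.59, 1.74 and 1.19 in WT and at 1.97 in amo1D. Since the plasmid also encodes H3, the probes of hht2 may read plasmid DNA too, which was not tested. The gene pht1, for the variant H2A.Z, was at -0.34, -0.16 and -0.35 in WT against -0.41 in amo1D. At hhf2, for histone H4, amo1D was 0.09 higher and inside the WT range. Of the meiotic genes mei4 was 0.19 higher, rec8 0.01 and spo5 0.007. The retrotransposons Tf2-9 and Tf2-10 differed by 0.08 and 0.10, inside the WT range, and none of 49 Tf2 windows was above or below all WT arrays. The invertase gene inv1, whose promoter drives the tagged histone, was at 1.56, 1.13 and 0.73 in WT and at 1.56 in amo1D, level with its slide mate. The values of inv1 and hrp1 rest on an assumed shift of 900 bases between the numbering of the array and ASM294v3, which matching by base composition did not recover for these short patches (best shifts of -4075 and 915). Of the MBF genes, cdc18 was 0.15 higher and inside the WT range. No rixosome gene was measured.

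Neighbouring windows moved together, so that differences came in blocks. The correlation of the probe difference on the arms of chromosome II with itself was 0.84 at 50 bp, 0.58 at 500 bp and 0.16 at 2000 bp, as a description of probes that share fragments. Joining at least 3 neighbouring windows above all WT arrays gave 328 higher runs, and below all WT arrays 337 lower runs, both with a median of 5 windows. Of the 9 higher runs of 20 or more windows, 4 were in centromere 2, and of the 4 lower runs of that length none was. The longest higher run spanned the core and much of the innermost repeats (81 windows, 16210 bp), with WT at -2.65, -2.63 and -2.63 and amo1D at -2.02. The second spanned the right outer repeats, the tRNA cluster, yox1 and rec6 (73 windows, difference 0.53).

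Away from the centromere, the longest higher run covered 53 windows (10610 bp, 1288411 to 1299020 in the numbering of the array). It holds apn2, slx8, dip2, pdi3 and SPBC30B4.09, with WT at -0.06, -0.13 and -0.10 and amo1D at 0.12. The gene pdi3, for a protein disulfide isomerase, was at -0.04, -0.15 and -0.16 in WT and at 0.13 in amo1D. A run of 41 windows over dot2, mug166 and rpc1 was 0.18 higher. The run over SPNCRNA.1571 and SPNCRNA.1572 (12 windows, 3010711 to 3013120) had WT at 0.83, 0.80 and 0.37 and amo1D at 1.27. Its Cy5 was at 0.17, 0.83 and -0.06 in WT and at 0.58 in amo1D, inside the WT range, and its Cy3 was at -0.65, 0.02 and -0.43 in WT and at -0.69.

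The median difference was -0.15 over the lower runs and 0.20 over the higher runs, and the longest lower run had 27 windows. The run over SPBC19C7.04C (7 windows) had WT at 0.97, 0.54 and 0.66 and amo1D at 0.24. The run over wis1, for the kinase above the stress-activated MAP kinase, was at 0.50, 0.19 and 0.59 in WT and at 0.00 in amo1D (4 windows), while the whole wis1 gene differed by -0.02 and lay inside the WT range. The run over gcn2 (5410 bp) had the narrowest WT range of the named runs, 0.06, 0.07 and 0.06, against -0.15 in amo1D. Over clr1 and coq8, 23 windows were at -0.07, -0.09 and -0.09 in WT and at -0.32 in amo1D. Of the 10 lower runs of largest difference, Cy5 was below the WT mean in 8 and Cy3 was above it in all 10.

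Over all windows, the mean of those lowest in WT was above all WT arrays in amo1D, whereas the mean of those highest in WT lay inside the WT range. All windows were ranked by their WT mean into 10 equal bins. In the lowest bin (WT means under -0.37) the mean difference was 0.15, with 39.5% of windows above all WT arrays. In the fifth and the sixth bin it was -0.007 and 0.001, and in the highest bin 0.09 (WT at 0.79, 0.64 and 0.54, amo1D at 0.75). On the arms alone the lowest bin differed by 0.006 and the highest by 0.10 (WT at 0.77, 0.62 and 0.52, amo1D at 0.73). The highest bin of the arms thus lay inside the WT range, and the bins were ranked on the same WT values, so the ranks and differences share error.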

How the data were processed

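Chromatin immunoprecipitates of tagged H3 (Cy5) and whole-cell extract (Cy3) were read on 2-colour Agilent arrays. The deposited scanner files hold an intensity per spot, and the authors' Feature Extraction 12.0.3.1 subtracted background and normalized the dyes, per the file headers. The deposited series table holds a ratio per probe that matched the processed Cy5 over Cy3, and it was an alternative. Control spots (1227) and outlier spots were left out, log2 ratios were centred on each array's median, and means were taken over 200 bp windows and genes with at least 2 probes. Probes of the deleted stretch were masked, for genes too. The test over windows and over genes used limma 3.58.1 (R 4.3.3; Benjamini-Hochberg, 0.05), with python 3.11.15, pandas 2.3.3 and blastn 2.17.0 for the rest, and the fit was tested on simulated data. Mean signals were not used here, so normexp (offset 50) and the setting without background subtraction ran on median signals.

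The array's numbering runs ahead of ASM294v3 on chromosome II by 900 up to a gap in the tiling inside the left innermost repeat and by 1800 after it, and 900 was assumed for the patches on I and III; the build used for the design is not given in the sources used here. Named were the 10 runs (at least 3 windows) of largest difference and the longest runs per direction. Per direction, the 12 genes of smallest p were named from those above, or below, all WT arrays. Their place outside the WT range was thus fixed by the choice. Up to 3 members of each list were named, and inv1, hht2 and tlh2. Genes beside the centromere, mating-type interval and deletion were added by place, those of the centromere as examples. The members, lists and alternatives were chosen with earlier results of these data known. Alternatives were other normalizations, background corrections, probe filters, window widths, leaving out each WT array, and the value within the slide.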

Additional observations from a re-analysis of the deposited data

How the results depend on the processing

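With 1 amo1D array no spread of its own was measured, low Cy5 limits the core, and repeated probes limit the centromere and ends. No window was called in limma under 17 alternatives (smallest adjusted p 0.548 to 1.0), nor a gene under 14 (0.0765 to 0.957). Of the region values, 185 moved by less than the WT SD, 9 moved by more and 3 reversed; the cause was not tested. The core differed by -0.003 after quantile normalization, -0.63 under normexp, 1.176 with arrays scaled to a common median absolute deviation, and 0.375 without background subtraction. The tRNA clusters differed by 0.369 (quantile) and 0.733 (scaled), and the 10 kb left of the mating-type interval by 0.179 (quantile) and 0.336 (normexp). The interval reversed to -0.041 with probes of 1 match. Within the slide, gene bodies differed by -0.037, divergent intergenic windows by 0.176 and convergent ones by 0.191. Of single genes, spo5 reversed to -0.016 (quantile), -0.015 (scaled), -0.019 (normexp) and -0.005 (no background subtraction), and SPNCRNA.369, a noncoding RNA in the core run, to -0.201 (quantile) and -0.346 (normexp). Leaving out each WT array in turn gave 0.609 to 0.764 for the core, 0.462 to 0.663 for the innermost repeats, 0.252 to 0.627 for the outer repeats, 0.513 to 0.629 for the tRNA clusters, 0.125 to 0.244 for the mating-type interval, 0.208 to 0.243 to its left, 0.112 to 0.386 at the right end, -0.016 to 0.005 for gene bodies, and 0.037 to 0.123, 0.088 to 0.147 and 0.07 to 0.136 for divergent, tandem and convergent windows. No paired analysis was possible because amo1D is 1 array with no replicate number in its label, and a slide block with WT replicate 1 leaves no residual degrees of freedom.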
